A study of Mus musculus with 12 samples.

Results

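The response of the colon mucosa to azoxymethane and dextran sodium sulfate was followed in bone marrow chimeric mice whose donors were wild type, over 6 of the 12 mice of the series. The members are all samples labelled WT_untreated (3 mice) and WT_AOMDSS (3 mice), where WT names the marrow donor, and 1 scraped colon mucosa was hybridised per array. Donors and recipients of these 6 mice were C57BL/6 and wild type, so that neither group carries a Muc1 deletion. How far donor cells had replaced the recipient's own was not analysed here. Treated mice received azoxymethane (AOM) into the peritoneum at 12.5 mg/kg. From 5 days later they drank dextran sodium sulfate (DSS), at 2% for 4 days with 14 days of water after it, in 2 such cycles, and then at 2.5% for 5 days. The colon was taken 1 day after the last DSS. The other group is labelled untreated. Neither the labels nor the files used here give ages. The other 6 mice of the series, with marrow from Muc1 knockout donors, entered the fit for its estimate of the spread and the checks on slides.

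AOM is a procarcinogen that cytochromes of the liver and gut turn into an alkylating agent, and DSS damages the colon epithelium, so that bacteria reach the tissue below. The injured mucosa is known for its neutrophils and monocytes, which are drawn by chemokines made under NF-kB, for epithelial defence under STAT3, and for the loss of mature absorptive cells while the crypts regrow. Repeated cycles of this model lead to tumours in the colon. Colon epithelium also has a circadian clock, in which transcription factors of the PAR bZIP family and nuclear receptors of the REV-ERB family form output and feedback arms.

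Values below are log2 processed signals minus the array's own 75th percentile, called scaled log2 signal, and changes are treated minus untreated on that scale, with standard errors from limma. Triplets of values are given for replicates 1, 2 and 3. The labelled tissue was checked against its markers. All 10 colon epithelial markers on the array were well above background in all 3 untreated mice, with group means of 3.02 to 9.63, and 9 of 10 in all 3 treated mice (2.86 to 9.29). Among them, Epcam (5.99, 5.69 and 5.78 in untreated and 5.96, 5.78 and 6.97 in treated mice), Krt8 (9.72, 9.88 and 9.29 in untreated and 9.01, 8.67 and 10.18 in treated mice) and Vil1 (7.82, 7.33 and 7.21 in untreated and 7.37, 7.11 and 6.99 in treated mice) overlapped between the groups, and Slc26a3 was the 1 marker that passed the test, lower in treated mice. Markers of small intestine (-2.79 to -0.97), liver (-3.66 to -1.77) and T cells (-2.55 to -1.68) had low untreated means. Of these, 4 of 5, 3 of 3 and 3 of 3 were still well above background in all 3 untreated mice, so that this flag alone does not tell tissues apart. Markers of red cells reached 3.29 (Hba-a1), and those of smooth muscle (Actg2) and adipocytes (Cidec) 2.06.

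The 2 groups shared no slide, and this bears on every value below. The slide, read from the barcode in the file headers, was slide 1 for all 3 untreated mice, slide 3 for treated mice 1 and 2, and slide 2 for treated mouse 3. Slide 3 was scanned on the earlier of 2 days and slides 1 and 2 on the later one. Slide effects can be estimated only through mice with knockout marrow, and only on the assumption that a slide acts alike in both marrows. With knockout marrow, untreated mouse 1 lay on slide 1 and untreated mice 2 and 3 on slide 2. Treated mice 1 and 2 with that marrow lay on slide 3 and treated mouse 3 on slide 2. A single knockout-marrow mouse thus stands for slide 1, and a single treated one for slide 2. Among the 6 arrays, the 75th percentile of the signal ranged from 332 to 767.8 in 5 and was 153.2 in treated mouse 3, the dimmest of the series. Between 64.1% and 77.03% of gene probes were well above background. Values correlated across genes at 0.961 to 0.972 among the untreated mice, at 0.973 between treated mice 1 and 2, and at 0.913 and 0.889 between these and treated mouse 3.

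Of 23747 genes tested, 14667 of them with a symbol, 856 were higher (3.6%) and 2420 lower (10.2%) in treated mice at an adjusted p under 0.05, so that 13.8% were called in either direction. Of these calls 26.1% were rises, against 47.4% after quantile normalization and 56.6% after scaling to the median. The median change over all genes was -0.24, and it was 0.05 and 0.36 under those scalings, so that a change near these values has no fixed direction. The 2 directions differed in signal level. With the genes split by mean signal into 4 sets of equal size, there were 77 rises and 818 falls in the lowest set, and 322 rises and 297 falls in the highest. A call is named steady below if the treated values did not overlap the untreated ones and the change kept its sign in each of the 22 alternative settings that gave the gene a value. Of the 1445 such calls, 1219 had a value in all 22 and 226 in fewer (at least 19), and 87 lacked the value of at least 1 array. By that rule 806 of 856 rises (94.2%) and 639 of 2420 falls (26.4%) were steady, which is 3.39% and 2.69% of the genes tested. Over all genes tested, the groups did not overlap for 11.2% with a higher and 22% with a lower treated mean. A lack of overlap in a steady gene is set by the rule and adds nothing to its call. The settings did not sort alike. Of the falls with a value, 57.8% kept their sign with normexp background correction and 57% with slide as a fixed block. Set against untreated mice with knockout marrow within slide 2, 37.8% did. Every other setting kept at least 99.9%, and leaving out an array cannot change a sign where groups do not overlap. For rises each setting kept at least 97.3%. In the lowest set 76 of 77 rises and 22 of 818 falls were steady, and in the highest 305 of 322 and 268 of 297. Of the 1445 steady calls, 311 also passed the test with any 1 of the 6 arrays left out, and each paragraph below says which did. Counts of list members below stand against 3.6% higher and 10.2% lower over all genes, also where this is not repeated.

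**Figure D1:**
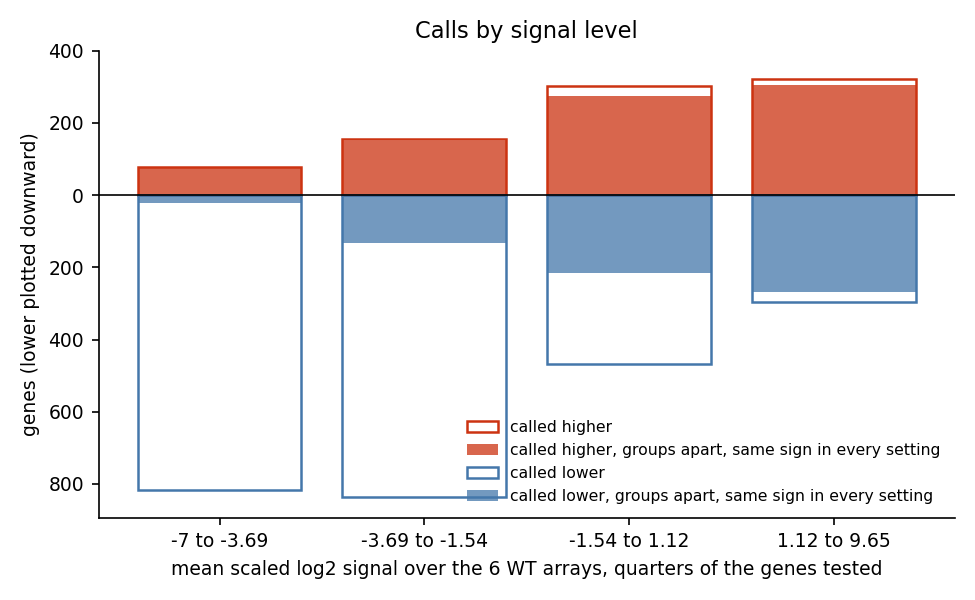
Genes called higher (red, upward) and lower (blue, downward) in treated mice with wild-type marrow, in 4 sets of genes of equal size by mean scaled log2 signal over the 6 arrays. Filled bars are calls whose groups do not overlap and whose sign held in every setting. The filled share of the falls is smallest in the lowest set (22 of 818) and largest in the highest (268 of 297).

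With slide as a fixed block 127 genes were called, 111 higher and 16 lower, and with slide as a random block over the 12 arrays 168 were. Over the 6 arrays alone the random block left no gene called by limma, with 1608 genes at an unadjusted p under 0.05. Genes called without a slide term and with both slide terms over the 12 arrays numbered 63, of which 58 were higher and 5 lower, and all 63 were steady. The 51 of them with a symbol included S100a9, Il1b, Cxcl5, Cxcl2, Cxcl3, Ccl3, Ccl4, Clec4e, Retnlg, Il1r2, Socs3, Slpi, Inhba and Tgm2. The falls with a symbol were Dbp, Mep1a, Sult1d1, a sulfotransferase, and Mettl7a1. The steady rises had a median change of 1.49 without a slide term and 1.68 with the fixed block, and the steady falls of -1.64 and -1.15. The other 1781 falls had a median change of -2.79, which was 0.14 with the fixed block. A changed sign with this block, or within slide 2 against untreated mice with knockout marrow, is a way to fail the steady rule. The 0.14, and the slide difference given next, are therefore partly set by that sorting. In untreated mice with knockout marrow, slide 1 was above slide 2 by a median of 2.12 for these 1781 genes. The difference was 0.35 for all genes, 0.05 for steady rises and 0.23 for steady falls. It sets mouse 1 alone against mice 2 and 3, so that mouse and slide cannot be told apart in it. The part of slides in these falls was not tested beyond these values, and treatment and slide cannot be told apart for them.

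**Figure D2:**
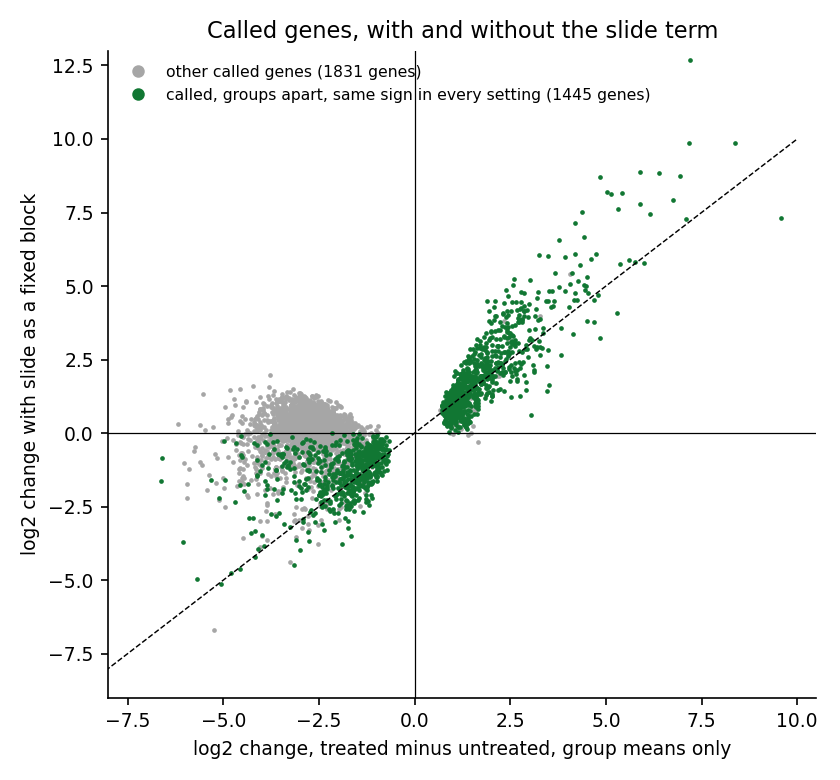
Log2 change of each called gene without a slide term (horizontal) and with slide as a fixed block (vertical). Green points are the 1445 steady calls, grey points the other calls, and the dashed line marks equal values. The falls that were not steady have a median of 0.14 on the vertical axis and -2.79 on the horizontal one, while the steady rises have 1.68 and 1.49. A sign changed on the vertical axis makes a call not steady, so the colours are partly sorted by that axis.

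Genes of neutrophils and their alarmins rose, some of them over 100-fold. Of 27 neutrophil genes tested, 12 were higher and 1 lower (background 3.6% higher), with a list median of 1.59 against -0.24 over all genes. S100a9, a calcium-binding alarmin of neutrophils and monocytes, stood at -2.53, -1.87 and -3.68 in untreated and 5.14, 5.1 and 6.8 in treated mice. All treated values lay over 6 units above the untreated ones, a change of 8.37 ± 0.63 (331-fold, adjusted p = 3.77e-05). Its partner S100a8 (-6.57, -4.03 and -7.11 in untreated and 3.54, 4.68 and 2.79 in treated mice) was well above background in 1 untreated mouse and changed by 9.57 ± 0.85. Clec4e, a receptor for mycobacterial cord factor, was not well above background in untreated mice and rose at least 58.6-fold (-5.45, -5.04 and -6.26 in untreated and 0.28, -1.17 and 1.83 in treated mice). By the same kind of bound, Retnlg rose at least 22.3-fold, Il1r2, the decoy receptor of interleukin 1, at least 18.1-fold, Csf3r, the receptor of granulocyte colony-stimulating factor, at least 13.6-fold, and Mmp8, neutrophil collagenase, at least 4.4-fold. For these bounds the treated mean was set against the higher of the probe's own untreated signal and the lowest signal well above background. Csf2rb2, a beta chain of the interleukin 3 receptor, changed by 3.26 ± 0.62 and Itgam by 2.36 ± 0.48. Cxcr2, the chemokine receptor of neutrophils, did not pass (-6.1, -5.3 and -6.39 in untreated and -5.19, -4.33 and -1.7 in treated mice, adjusted p = 0.163). Ctsg, a granule protease, went the other way (-2.34 ± 0.56), was not steady and stood at 0.08 with slide as a fixed block. In bulk tissue, fewer cells of a type and less RNA per cell cannot be told apart, here and below. The calls of S100a9, S100a8, Clec4e, Retnlg, Il1r2, Csf3r and Csf2rb2 passed with any 1 array left out, and those of Mmp8, Itgam and Ctsg were lost in at least 1 of those fits (adjusted p up to 0.0952, losses without untreated mouse 1 or 2 or treated mouse 1 or 2).

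**Figure D3:**
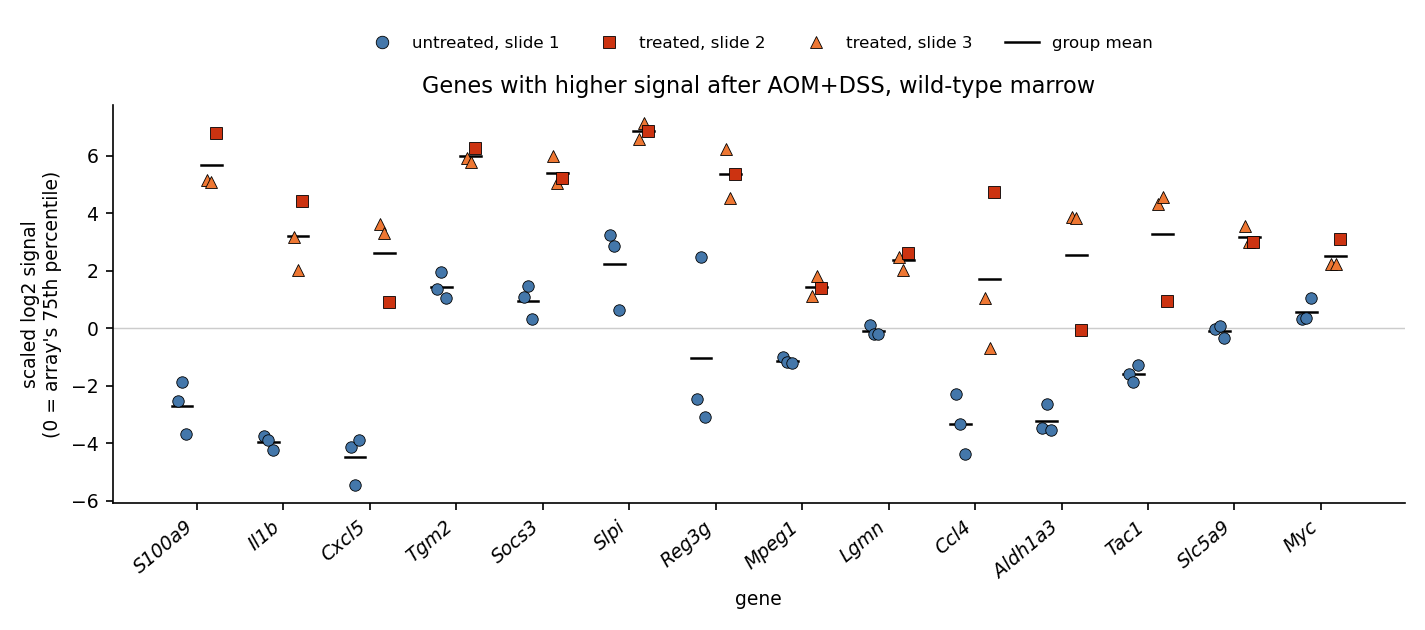
Scaled log2 signal of 14 genes that were higher in treated mice, 1 point per mouse, with bars at the group means and symbols by slide. All 14 are steady calls, so that treated and untreated mice are separate for each gene by the rule that chose them. Treated mouse 3 (square, slide 2) stands apart from treated mice 1 and 2 for Ccl4, Cxcl5, Aldh1a3 and Tac1.

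A share of the chemokine genes rose. Of 19 CXC chemokines and receptors tested 7 were higher and none lower, and of 25 CC members 5 were higher and none lower, against 3.6% higher and 10.2% lower over all genes. Cxcl5, made by epithelium and stroma, stood at -4.13, -5.44 and -3.87 in untreated and 3.62, 3.3 and 0.91 in treated mice, a change of 7.09 ± 0.66 with adjusted p = 0.00023. Treated mouse 3 had the lowest treated value and was still over 4 units above the highest untreated one. Cxcl2 (-5.91, -6.12 and -6.76 in untreated and -0.89, -1.89 and 0.1 in treated mice) and Cxcl3 (-7.59, -7.45 and -7.78 in untreated and -0.95, -2.68 and -0.73 in treated mice) were not well above background in untreated mice and rose at least 27.3-fold and at least 18.6-fold. Cxcl1 stood at -5.23, -6.16 and -6.09 in untreated and -0.07, -0.29 and -2.71 in treated mice. Cxcl10 and Cxcl9, ligands of the T cell receptor CXCR3 that are induced by interferon, changed by 3.34 ± 0.47 and 3.47 ± 0.82. Ccl3 rose at least 50.1-fold (-5.5, -5.81 and -6.36 in untreated and 0.21, -1.4 and 1.18 in treated mice). Ccl4 was the most variable, at -2.3, -3.33 and -4.37 in untreated and 1.06, -0.69 and 4.74 in treated mice, with treated mouse 3 over 3 units above the next. Ccl2, which draws monocytes, changed by 2.68 ± 0.59 and Ccl8 by 2.02 ± 0.53. Chemokines of the resting tissue, Cxcl12 (-0.3 ± 0.89) and Cxcl14 (-0.51 ± 0.5), did not pass. With each array left out in turn, Cxcl5, Cxcl2, Cxcl3, Cxcl1, Cxcl10 and Ccl3 stayed under the threshold, and Cxcl9, Ccl4, Ccl2 and Ccl8 exceeded it in at least 1 fit (adjusted p up to 0.0968, losses without untreated mouse 1, 2 or 3 or treated mouse 1 or 2).

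Cxcl1, Cxcl2 and Cxcl10, which rose, are shown by the 250 bases before their starts (RefSeq, GRCm38.p6, each 5′ to 3′ on its own strand). These are not all CXC genes that rose, and they were chosen with their changes known. They lie at chr5:90890995-90891244 and chr5:90903649-90903898 on the plus strand and chr5:92348890-92349139 on the minus strand. Capitals mark matches to NF-kB letters, which are GGG, then 2 bases of any kind, then TTTCC or TTCCC, on either strand.
Cxcl1: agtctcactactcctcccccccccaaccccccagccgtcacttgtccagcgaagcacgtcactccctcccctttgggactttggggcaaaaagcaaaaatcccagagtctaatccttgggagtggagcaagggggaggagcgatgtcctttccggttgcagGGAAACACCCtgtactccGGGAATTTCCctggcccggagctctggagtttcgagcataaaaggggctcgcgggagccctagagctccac
Cxcl2: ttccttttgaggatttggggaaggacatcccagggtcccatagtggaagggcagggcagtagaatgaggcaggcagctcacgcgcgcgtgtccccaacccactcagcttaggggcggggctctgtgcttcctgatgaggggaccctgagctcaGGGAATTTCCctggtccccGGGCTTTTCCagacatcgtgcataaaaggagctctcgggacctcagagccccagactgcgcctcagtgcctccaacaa
Cxcl10: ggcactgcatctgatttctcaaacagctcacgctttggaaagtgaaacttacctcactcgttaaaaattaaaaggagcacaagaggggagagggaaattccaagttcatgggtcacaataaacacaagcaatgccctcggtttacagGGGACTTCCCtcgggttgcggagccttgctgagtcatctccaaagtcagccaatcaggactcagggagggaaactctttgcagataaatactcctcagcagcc
Cxcl1 and Cxcl2 each held 2 matches and Cxcl10 held 1. Over windows of 300 bases that run to 50 bases past the start, 3.62% of 14826 promoters of tested genes held a match, against 6.3% of 651 promoters of steady rises and 4.67% of 493 promoters of steady falls. Among other genes named here, matches lay in windows of Cxcl3, Cxcl9, Tlr2, Tifa and Reg3g, which rose. They also lay in windows of Gjb5, Rgs13, Trpm5 and Slc22a2, which were called lower. No match was found for Cxcl5, the largest rise of the CXC list. A match is a description of letters and shows no binding.

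Single genes of interleukin 1 and of STAT3 signals rose. Il1b, the main secreted interleukin 1, stood at -3.76, -3.9 and -4.23 in untreated and 3.17, 2.04 and 4.44 in treated mice, a change of 7.18 ± 0.65 (adjusted p = 0.000184), and it had the lowest adjusted p of all genes with slide as a fixed block (4.69e-05). Of 17 genes of the interleukin 1 family 4 were higher and none lower. Il1a rose at least 5.13-fold and Il1rl1, the receptor of interleukin 33, changed by 2.43 ± 0.61. In the interleukin 6 and STAT3 list 5 of 24 were higher and 3 lower, with a median of 0.01. Socs3, a feedback inhibitor that STAT3 induces, stood at 1.08, 1.48 and 0.32 in untreated and 5.98, 5.03 and 5.23 in treated mice, with no overlap and a change of 4.45 ± 0.33. Osmr, the oncostatin M receptor, stood at -1.88, -2.62 and -4.71 in untreated and 1.95, 1.76 and 0.59 in treated mice. Socs1 rose by 2.33 ± 0.51 while Socs2, a feedback inhibitor of growth hormone signals, fell by 2. In the TNF and NF-kB list 7 of 26 genes were higher and none lower (median 0.85), with Tnfrsf1b, TNF receptor 2, at 2.9 ± 0.37, Tnf at 1.76 ± 0.45, and the NF-kB inhibitors Nfkbie at 1.43 ± 0.37 and Bcl3 at 0.85 ± 0.25. Tifa, an adaptor that couples bacterial sugar sensing to NF-kB, was among the 10 highest statistics (0.94, 1.14 and 1.53 in untreated and 4.7, 3.6 and 3.62 in treated mice). Of 21 genes of bacterial sensing 7 were higher and 1 lower, with Cd14, a co-receptor for lipopolysaccharide, at 2.19 ± 0.28, Clec4d at 5.43 ± 1.05 and Tlr2 at 1.27 ± 0.27. Of 32 interferon genes 3 passed (background 3.6% higher and 10.2% lower), Cxcl9, Cxcl10 and Oas2 (2.27 ± 0.64). Leaving out single arrays kept Il1b, Socs3, Osmr, Tnfrsf1b, Tifa, Cd14 and Cxcl10 called, while Il1a, Il1rl1, Socs1, Socs2, Tnf, Nfkbie, Bcl3, Clec4d, Tlr2, Cxcl9 and Oas2 lost the call at least once (adjusted p up to 0.13, losses without untreated mouse 1, 2 or 3 or treated mouse 1 or 2).

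Monocyte and macrophage genes rose as a group, with 15 of 25 tested higher and none lower and a median of 1.99. Lgmn, a lysosomal endopeptidase, stood at 0.12, -0.18 and -0.2 in untreated and 2.48, 2.02 and 2.62 in treated mice, and Mpeg1, a pore-forming protein of macrophages, at -1.01, -1.17 and -1.21 in untreated and 1.12, 1.81 and 1.39 in treated mice. Each of these triplets spanned less than 1 unit within a group and the groups lay over 1.8 units apart. Aif1 changed by 2.81 ± 0.4, with no value for treated mouse 2, and Arg1, arginase of tissue-repair macrophages, by 4.24 ± 0.63 (-5.74, -4.93 and -5.46 in untreated and 0.18, -1.09 and -2.5 in treated mice). Trem2 (2.11 ± 0.56), C1qa (2.19 ± 0.6), C1qc (1.99 ± 0.53), Csf1r (1.31 ± 0.39), Msr1 (2.53 ± 0.67) and Csf1 (1.97 ± 0.48) also passed, and Ms4a6d rose at least 6.78-fold. Adgre1 (0.92 ± 0.63) and Mrc1 (0.75 ± 0.45), classical macrophage markers, did not. Among Fc receptors and their adaptors 7 of 19 were higher and 1 lower, with Sirpa, the receptor of the signal CD47, at -2.86, -1.49 and -2.73 in untreated and 0.75, 0.8 and 0.84 in treated mice, Pirb, an inhibitory receptor for MHC class I, at -2.24, -0.06 and -2.61 in untreated and 2.03, 1.65 and 3.18 in treated mice, Clec5a at 3.78 ± 0.65 and the adaptor Tyrobp at 2.34 ± 0.41. Of 25 complement genes 6 were higher and 3 lower, the latter near the 10.2% over all genes and none of them steady. The receptor chain Itgax changed by 2.81 ± 0.36, C5ar2 by 2.98 ± 0.48 and C1s1 by 3.13 ± 0.83. The NADPH oxidase subunit Ncf4 changed by 2.3 ± 0.44, and Cybb (1.86 ± 0.75) did not pass. Among these genes Lgmn, Mpeg1, Aif1, Arg1, Ms4a6d, Sirpa, Pirb, Clec5a, Tyrobp, Itgax and C5ar2 were called in all 6 fits without 1 array, and Trem2, C1qa, C1qc, Csf1r, Msr1, Csf1, C1s1 and Ncf4 were not (adjusted p up to 0.128, losses without untreated mouse 1, 2 or 3 or treated mouse 1 or 2).

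Mast cell proteases were called in both directions, with the falls dependent on the setting. Mcpt1 (-3.89, -3.13 and -3.47 in untreated and -0.97, 0.19 and -0.7 in treated mice), of mucosal mast cells, Mcpt4 (2.56 ± 0.45) and Mcpt2 (at least 4.47-fold, well above background in 2 treated mice) were higher, while Cma1, also named mast cell protease 5, was lower at -1.87 ± 0.43. The change of Cma1 ran from -2.51 to -0.09 over the alternative settings. Tpsb2, also of mast cells and given below, was called lower, was not steady and stood at 0.42 with slide as a fixed block. Hdc, which makes histamine and is also made by myeloid cells, stood at -2.64, -4.47 and -3.44 in untreated and 1.28, -0.36 and 3.03 in treated mice. Il5ra, an eosinophil receptor, rose at least 6.34-fold. Among 26 genes of T, NK and innate lymphoid cells 2 passed (background 3.6% higher and 10.2% lower), Ifng at 3.51 ± 0.9 and Gata3 at 2.77 ± 0.68 with no value for treated mouse 1. Among 22 B and plasma cell genes Jchain, the joining chain of secreted IgA and IgM, was higher (1.5, 1.6 and 0.25 in untreated and 3.43, 4.29 and 2.62 in treated mice), and Cr2 was lower at -2.46 ± 0.6, not steady, and 0.11 with slide as a fixed block. Batf (2.4 ± 0.59), a transcription factor of lymphocytes, Mefv (1.89 ± 0.56), which encodes pyrin, and Hcls1 (2.34 ± 0.5) were in the 63 genes called with both slide terms. In the fits without 1 array, Mcpt1, Mcpt4, Hdc and Jchain were always called, and Mcpt2, Cma1, Il5ra, Ifng, Gata3, Cr2, Batf, Mefv and Hcls1 missed the threshold in 1 or more (adjusted p up to 0.135, losses without untreated mouse 1, 2 or 3 or treated mouse 1, 2 or 3).

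Antimicrobial and acute-phase genes rose in treated mice, and 1 untreated mouse was already high for several of them. Of 30 tested, 11 were higher and 4 lower (median 0.69). Slpi, a secreted inhibitor of neutrophil elastase, stood at 3.23, 2.85 and 0.64 in untreated and 6.57, 7.12 and 6.86 in treated mice, and Wfdc18 at 2.5, 1.9 and 1.4 in untreated and 4.73, 5.27 and 6.53 in treated mice. Reg3g and Reg3b, lectins that kill Gram-positive bacteria or bind Gram-negative ones, stood at -2.46, 2.47 and -3.07 in untreated and 6.22, 4.52 and 5.38 in treated mice and at -0.48, 4.73 and -1.71 in untreated and 8.42, 6.47 and 7.95 in treated mice. For both genes untreated mouse 2 was over 4 units above the other untreated mice and under every treated one. Hp, haptoglobin, showed the same order (-5.1, 0.19 and -5.46 in untreated and 0.8, 1.84 and 2.88 in treated mice). Leaving out untreated mouse 2 moved the change of Reg3g from 6.39 to 8.14, of Reg3b from 6.77 to 8.71 and of Hp from 5.29 to 7.12. Lrg1 stood at -1.8, -0.36 and -1.99 in untreated and 6.13 and 3.08 in treated mice, no value for treated mouse 1. Lcn2, which binds bacterial siderophores, rose at least 4.9-fold, Ltf, lactoferrin, changed by 4.5 ± 0.94 and Lbp, the lipopolysaccharide binding protein, by 3.46 ± 0.81. Ang4, an angiogenin of Paneth and goblet cells, fell, at 6.8, 7.06 and 4.94 in untreated and 0.15, -0.35 and 4.65 in treated mice. Treated mouse 3 lay within 0.3 of the lowest untreated value, and without it the change of Ang4 was -6.37 in place of -4.78. Over the alternative settings the change of Ang4 ran from -6.42 to -0.16. Reg4 fell by 1.92. Hpx (-2.76 ± 0.73) and Orm2 (-2.45 ± 0.73), acute-phase proteins of the liver, were called lower and were not steady. Single arrays decided no call of Slpi, Wfdc18, Reg3g, Lrg1 and Lcn2, but at least 1 did for Reg3b, Hp, Ltf, Lbp, Ang4, Reg4, Hpx and Orm2 (adjusted p up to 0.156, losses without untreated mouse 1, 2 or 3 or treated mouse 1 or 2).

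Some proteases of the matrix rose, and matrix proteins changed in both directions. Of 21 metalloproteinases and inhibitors 5 were higher and none lower, and of 22 matricellular genes 2 were higher and 1 lower (median 0.16). Mmp13, a collagenase, stood at -4.54, -4.24 and -5.88 in untreated and -0.29, 0.09 and -1.16 in treated mice, Mmp3, stromelysin 1, at -7.43, -4.7 and -6.76 in untreated and -1.94, -0.32 and -1.25 in treated mice with 1 untreated mouse well above background, and Mmp7, matrilysin, at 2.55 ± 0.61. Spp1, osteopontin, was not well above background in untreated mice and rose at least 60.3-fold (-6.58, -5.97 and -7.51 in untreated and -1.53, 1.36 and 0.91 in treated mice). Tgm2, which crosslinks proteins, had the highest statistic of all genes, at 1.35, 1.95 and 1.05 in untreated and 5.93, 5.77 and 6.26 in treated mice and 4.54 ± 0.29 (adjusted p = 2.21e-05). Tgfbi, a matrix protein that TGF-beta induces, changed by 2.72 ± 0.5 and Inhba, a subunit of activin A, by 4.37 ± 0.82, while the inhibitors Smad7 and Smad6 fell by 1.14 and 0.99. In plasminogen activation and coagulation 6 of 21 were higher and none lower, with Plaur, the urokinase receptor, at 2.63 ± 0.38, Plat, tissue plasminogen activator, at 2.29 ± 0.47, Procr, the protein C receptor, at 3.17 ± 0.44 and F10 at 2.87 ± 0.64. Of 16 collagens 2 were higher and 2 lower (background 3.6% higher and 10.2% lower). Col18a1 rose by 1.38 ± 0.38 and Col8a1 fell by 1.39. Col1a1 was called higher at 2.17 ± 0.59 (-3.2, -1.26 and -3.38 in untreated and -0.7, 0.73 and -1.36 in treated mice), but its groups overlapped, since untreated mouse 2 lay above treated mouse 3, and Col15a1 was called lower (-2.37 ± 0.59) and was not steady. The laminin Lama5 rose by 1.61 ± 0.37. Icam1, an adhesion molecule for leukocytes, was called higher at -7.46, -6.8 and -5.81 in untreated and -2.05, -2.15 and -5.34 in treated mice, with 1 untreated and 2 treated mice well above background. Without treated mouse 3 its change was 4.59. Vcam1 changed by 2.24 ± 0.6. The calls of Mmp13, Spp1, Tgm2, Tgfbi, Inhba, Plaur and Procr passed with any 1 array left out, and those of Mmp3, Mmp7, Smad7, Smad6, Plat, F10, Col18a1, Col8a1, Col1a1, Col15a1, Lama5, Icam1 and Vcam1 were lost in at least 1 of those fits (adjusted p up to 0.143, losses without untreated mouse 1, 2 or 3 or treated mouse 1, 2 or 3).

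Junction and squamous genes changed in both directions. Gja1, a connexin, rose (-4.46, -4.08 and -3.86 in untreated and -0.96, -1.9 and -1.75 in treated mice) and Gjb5, another connexin, fell (0.64, -0.79 and 0.49 in untreated and -2.83, -2.85 and -1.49 in treated mice). Claudins Cldn8 and Cldn4 rose by 1.73 ± 0.34 and 1.59 ± 0.37. Ly6d, a surface antigen of squamous epithelium and early B cells, stood at -0.7, 0.73 and -1.91 in untreated and 3.83, 3.04 and 3.8 in treated mice and Serpinb5, maspin, at 0.94 ± 0.19. Sprr2d and Lor, of the cornified envelope, were called lower at -3.46 ± 0.96 and -1.35 ± 0.37 and were not steady. With each array left out in turn, Gja1, Gjb5 and Ly6d stayed under the threshold, and Cldn8, Cldn4, Serpinb5, Sprr2d and Lor exceeded it in at least 1 fit (adjusted p up to 0.138, losses without untreated mouse 1, 2 or 3 or treated mouse 1 or 2).

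Genes of growth and of ribosome making were higher. Myc, the transcription factor that drives ribosome synthesis, stood at 0.33, 0.34 and 1.06 in untreated and 2.22, 2.25 and 3.1 in treated mice, with no overlap, a change of 1.95 ± 0.32 and adjusted p = 0.00549. Of 21 genes of ribosome biogenesis 8 were higher and none lower (median 0.87), among them Nop2 (1.16 ± 0.25), Wdr12 (1.55 ± 0.36), Ddx21 (1.09 ± 0.26), Pes1 (0.87 ± 0.26), Polr1a (1.02 ± 0.28) and Polr1b (1.23 ± 0.3), subunits of RNA polymerase I, and Rrs1 (1.39 ± 0.31) and Fbl (1.04 ± 0.29) with 1 treated value missing each. The nucleolar protein Npm1 did not pass (-0.63 ± 0.33), and 1 of 24 ribosomal proteins was called, lower (median -0.21). Of 27 genes of DNA replication 6 were higher and none lower (median 0.81), among them Mcm10 (1.67 ± 0.49), Mcm3 (1.65 ± 0.46), Rrm2 (1.54 ± 0.43), Fen1 (1.39 ± 0.36), Dut (1.22 ± 0.35) and Uhrf1 (1.6 ± 0.36, without treated mouse 2). Pcna (0.77 ± 0.27) and Mcm7 (1.04 ± 0.42) did not pass. Of 24 mitotic and cell cycle genes 2 were called, in each case higher (background 3.6% higher). Ccnd2 changed by 1.08 ± 0.26, and Aurka stood at 2.62 ± 0.56 on 1 treated value, that of treated mouse 3 and the dimmest array, so that its call has no treated replicate. Of 23 constitutive proteasome genes 2 rose (background 3.6% higher), Psmc2 by 0.8 ± 0.24 and Psmd2 by 0.86 ± 0.26. Leaving out single arrays kept Myc called, while Nop2, Wdr12, Ddx21, Pes1, Polr1a, Polr1b, Rrs1, Fbl, Mcm10, Mcm3, Rrm2, Fen1, Dut, Uhrf1, Ccnd2, Aurka, Psmc2 and Psmd2 lost the call at least once (adjusted p up to 0.169, losses without untreated mouse 1, 2 or 3 or treated mouse 1, 2 or 3).

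Part of the EGF family and of the crypt and Wnt list was higher. Of 15 tested in the EGF list 4 were higher and none lower: the receptor Egfr (1.79, 1.68 and 1.34 in untreated and 3.07, 2.91 and 2.41 in treated mice), the ligands Btc (1.56 ± 0.35) and Hbegf (1.9 ± 0.52, without treated mouse 2) and the feedback phosphatase Dusp6 (1.65 ± 0.36). Immediate early genes Zfp36 (1.27 ± 0.31), Ier3 (1.71 ± 0.5) and Nr4a1 (1.54 ± 0.45) passed, with treated mouse 3 highest for each. Lgr5 (-1.85, -2.2 and -0.66 in untreated and -2.37, -2.88 and -1.11 in treated mice), Ascl2 (-0.94 ± 0.45) and Axin2 (-0.8 ± 0.42), which mark crypt base stem cells and Wnt activity, did not pass. Of 21 genes of the stem cell and Wnt list 4 were higher and none lower (median 0.34). Of these Ly6a, known as a mark of regenerating colon epithelium, rose at 4.66, 2.91 and 2.57 in untreated and 4.83, 5.42 and 4.83 in treated mice, with an untreated mouse within 0.2 of the treated ones. Anxa1 (1.23 ± 0.21), Ephb2 (1.06 ± 0.31) and Myc, given above, also rose. Of 23 cell death genes 2 were higher (background 3.6% higher), Ripk3 (2.38, 1.99 and 1.47 in untreated and 3.79, 3.63 and 3.88 in treated mice), a kinase of necroptosis, and Gsdmd (3.36, 3.14 and 3.37 in untreated and 4.78, 4.7 and 4.83 in treated mice), which forms pyroptotic pores. Of 25 p53 targets and repair genes, Phlda3 (1.59 ± 0.38) rose, Cdkn1a, the cell cycle inhibitor p21, fell by 1.33, and Sesn2 was called lower (-1.65 ± 0.39) and was not steady. Among these genes Anxa1, Myc, Ripk3 and Gsdmd were called in all 6 fits without 1 array, and Egfr, Btc, Hbegf, Dusp6, Zfp36, Ier3, Nr4a1, Ly6a, Ephb2, Phlda3, Cdkn1a and Sesn2 were not (adjusted p up to 0.145, losses without untreated mouse 1, 2 or 3 or treated mouse 1, 2 or 3).

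Some chaperones of the cytosol and of the endoplasmic reticulum were higher. Of 21 cytosolic chaperones 6 were higher and none lower (median 0.56). Hsph1 stood at 1.94, 1.92 and 1.84 in untreated and 3.8, 3.76 and 3.81 in treated mice, with narrow groups that lay far apart and a change of 1.89 ± 0.23. Hsp90aa1, Hspa4l and Hsp90ab1 changed by 0.91 ± 0.23, 1.04 ± 0.27 and 0.95 ± 0.29, and Chordc1 by 0.93 ± 0.21, not steady. Of 22 genes of the endoplasmic reticulum 3 were higher and none lower (median 0.22): Hspa5 (BiP, 5.18, 5.04 and 5.36 in untreated and 6.12, 6.29 and 5.72 in treated mice), Hsp90b1 (GRP94, 6.37, 5.81 and 5.64 in untreated and 6.88, 6.58 and 7.24 in treated mice) and Creld2 (4.41, 4.16 and 3.97 in untreated and 5.39 and 5.46 in treated mice, no value for treated mouse 1). The smallest changes over the alternative settings were 0.08 for Hspa5, 0.13 for Hsp90b1 and 0.51 for Creld2. In the fits without 1 array, Hsph1 were always called, and Hsp90aa1, Hspa4l, Hsp90ab1, Chordc1, Hspa5, Hsp90b1 and Creld2 missed the threshold in 1 or more (adjusted p up to 0.163, losses without untreated mouse 1, 2 or 3 or treated mouse 1 or 2).

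The 3 endoplasmic reticulum genes are shown by the 250 bases before their starts (RefSeq, GRCm38.p6), because each holds the stress element of that compartment. They lie at chr2:34771840-34772089 (plus strand), chr10:86705445-86705694 (minus strand) and chr15:88819396-88819645 (plus strand). Capitals mark matches to the element known as ERSE, CCAAT and CCACG with 9 bases of any kind between them, on either strand.
Hspa5: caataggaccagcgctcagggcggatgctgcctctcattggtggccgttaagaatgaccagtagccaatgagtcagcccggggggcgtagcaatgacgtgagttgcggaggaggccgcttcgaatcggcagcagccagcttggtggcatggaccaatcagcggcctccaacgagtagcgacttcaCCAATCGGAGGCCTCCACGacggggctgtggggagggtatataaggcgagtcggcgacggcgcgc
Hsp90b1: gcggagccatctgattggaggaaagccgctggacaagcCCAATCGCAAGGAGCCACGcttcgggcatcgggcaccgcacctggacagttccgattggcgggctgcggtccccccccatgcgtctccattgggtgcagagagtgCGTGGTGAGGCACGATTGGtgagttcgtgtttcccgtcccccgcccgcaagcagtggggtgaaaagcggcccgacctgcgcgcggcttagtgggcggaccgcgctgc
Creld2: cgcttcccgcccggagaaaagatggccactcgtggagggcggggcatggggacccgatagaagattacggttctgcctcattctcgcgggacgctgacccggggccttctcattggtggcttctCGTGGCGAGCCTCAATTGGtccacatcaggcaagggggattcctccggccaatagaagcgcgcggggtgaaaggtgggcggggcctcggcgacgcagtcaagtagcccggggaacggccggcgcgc
Hsp90b1 held 2 matches and the others 1 each. Among the 300-base windows of all tested genes 22 of 14826 held a match (0.148%), and among those of steady rises 3 of 651, which are these 3. The choice of these genes was made with their changes known.

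Output genes of the circadian clock fell. Of 13 clock repressors and output genes 8 were lower and none higher (background 10.2% lower), with a median of -2.14, and all 8 were steady. Dbp, a PAR bZIP transcription factor, stood at 5.17, 4.9 and 6.37 in untreated and -0.84, -0.24 and 0.48 in treated mice, the lowest statistic of all genes, a 51.2-fold fall (log2 -5.68 ± 0.49, adjusted p = 0.000148). Its relative Tef stood at 1.47, 1.47 and 2.4 in untreated and -2.96, -2.15 and -1.51 in treated mice, and Ciart, a repressor of the clock, at -0.4, -0.88 and -0.02 in untreated and -3.72, -5.04 and -3.34 in treated mice. The REV-ERB receptors Nr1d1 (-0.26, -0.39 and 0.39 in untreated and -4.33, -2.82 and -2.44 in treated mice) and Nr1d2 (0.57, 0.8 and 1.65 in untreated and -1.4, -1.55 and -1.83 in treated mice) had no overlap either. Usp2 (-2.01 ± 0.34), Cry2 (-1.79 ± 0.34) and Per3 (-2.57 ± 0.59) also fell, of which Per3 rounded to 0 with normexp background correction (adjusted p = 0.996), while Per1 (-1.03 ± 0.35, adjusted p = 0.0665), Per2 (-0.05 ± 0.48) and Cry1 (0.11 ± 0.43) did not pass. Arntl (BMAL1), the activator whose message peaks opposite to these, rose (-0.08, -0.5 and 0.11 in untreated and 1.37, 1.46 and 0.71 in treated mice), and Clock (0.37 ± 0.22) and Npas2 (0.87 ± 0.46) did not pass. No label used here gives the hour of dissection, so that treatment and hour cannot be told apart. The list median was -2.14, -0.49 with normexp background correction and -1.88 with slide as a fixed block. It was -2.75 within slide 2, where treated mouse 3 is set against untreated mice with knockout marrow, so that marrow also differs. The change of Arntl ran from 0.12 to 1.95 over the alternative settings. Single arrays decided no call of Dbp, Tef, Ciart, Nr1d1, Nr1d2 and Usp2, but at least 1 did for Cry2, Per3 and Arntl (adjusted p up to 0.0907, losses without untreated mouse 1 or 2 or treated mouse 1 or 2).

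Ciart and Tef are shown by the 250 bases before their starts (RefSeq, GRCm38.p6), since both fell and hold the E-box that the activators of the clock bind. They lie at chr3:95882229-95882478 (minus strand) and chr15:81802423-81802672 (plus strand, 1 of 2 starts of Tef). Capitals mark the letters CACGTG.
Ciart: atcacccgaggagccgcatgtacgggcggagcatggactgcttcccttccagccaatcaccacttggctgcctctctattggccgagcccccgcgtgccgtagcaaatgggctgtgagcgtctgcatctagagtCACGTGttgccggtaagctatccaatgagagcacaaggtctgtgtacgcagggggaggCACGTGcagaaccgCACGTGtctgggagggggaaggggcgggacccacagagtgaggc
Tef: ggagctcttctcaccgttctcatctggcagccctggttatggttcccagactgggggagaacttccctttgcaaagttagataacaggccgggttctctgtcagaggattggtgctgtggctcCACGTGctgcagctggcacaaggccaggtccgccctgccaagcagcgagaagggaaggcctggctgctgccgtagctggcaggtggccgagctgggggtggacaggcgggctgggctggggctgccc
Ciart held 3 matches and Tef 1. Of the windows of all tested genes 9.02% held these letters, of steady rises 7.68% and of steady falls 7.71%. No match was found for Dbp, Nr1d1, Nr1d2, Usp2, Cry2 and Per3, which also fell. Matches lay in windows of Per1 and Cry1, which did not pass, and of Slpi and Ripk3, which rose. Ciart and Tef were chosen with their changes known.

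**Figure D4:**
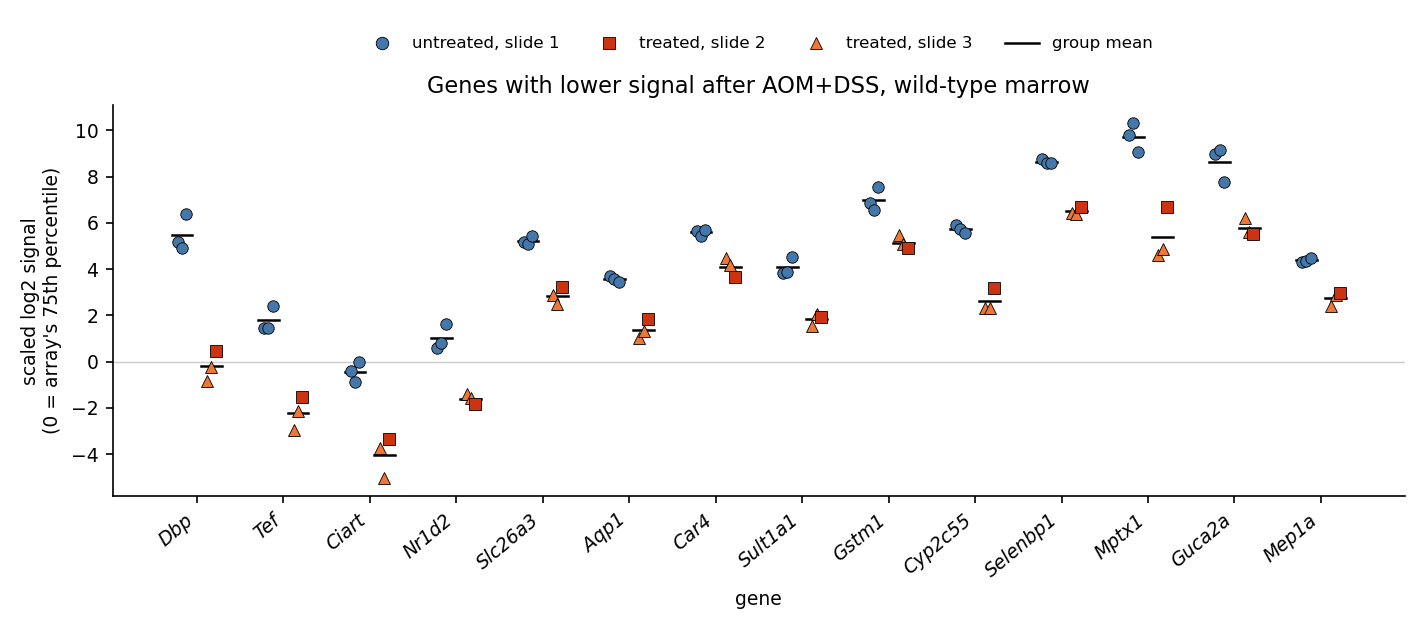
Scaled log2 signal of 14 genes that were lower in treated mice, 1 point per mouse, with bars at the group means and symbols by slide. Clock output genes are on the left, then absorptive transporters, detoxifying enzymes and other products of surface colonocytes. All 14 are steady calls, so that the groups are separate for each gene by the rule that chose them.

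Part of the transporters and surface products of mature colonocytes fell. Of 26 genes of ion and water transport 10 were lower and 1 higher (median -0.76, and -0.9 with slide as a fixed block). Slc26a3, the chloride and bicarbonate exchanger, stood at 5.18, 5.1 and 5.41 in untreated and 2.88, 2.49 and 3.21 in treated mice, a change of -2.38 ± 0.37. Aqp1, a water channel, stood at 3.69, 3.57 and 3.43 in untreated and 1.01, 1.31 and 1.83 in treated mice and Car4, a membrane carbonic anhydrase, at 5.66, 5.42 and 5.67 in untreated and 4.49, 4.19 and 3.65 in treated mice. The water channel Aqp8 (-1.68 ± 0.35), the sodium exchanger Slc9a2 (-1.59 ± 0.35), the bicarbonate carrier Slc4a4 (-2.76 ± 0.84) and the chloride channel Ano1 (-1.22 ± 0.25, without treated mouse 2) also fell. Slc9a3 (-2.36 ± 0.49) and Scnn1g (-1.96 ± 0.57) were called lower and were not steady, with normexp background correction turning them to 0.43 and 0.06. Clca4b, a regulator of chloride conductance, was the 1 rise (4.52, 4.15 and 2.34 in untreated and 6.78, 6.7 and 5.56 in treated mice). Of 18 genes of surface colonocyte differentiation 5 were lower, 0 higher and 13 not called (median -0.79). Guca2a, guanylin, stood at 8.97, 9.13 and 7.76 in untreated and 6.22, 5.61 and 5.5 in treated mice, Mep1a, the alpha subunit of meprin, at 4.3, 4.37 and 4.49 in untreated and 2.4, 2.87 and 2.96 in treated mice and Tmigd1 at -2.97 ± 0.69. Alpi, intestinal alkaline phosphatase, stood at -0.58, -0.08 and -2.26 in untreated and -4.16, -5.11 and -5.94 in treated mice. The colon epithelial markers Krt20 (-0.52, adjusted p = 0.431) and Car1 (-0.85, adjusted p = 0.127) did not pass. Pan-epithelial genes had a median of -0.01, with 1 of 17 called. The calls of Slc26a3, Aqp1, Car4, Guca2a, Mep1a and Alpi passed with any 1 array left out, and those of Aqp8, Slc9a2, Slc4a4, Ano1, Slc9a3, Scnn1g, Clca4b and Tmigd1 were lost in at least 1 of those fits (adjusted p up to 0.154, losses without untreated mouse 1, 2 or 3 or treated mouse 1, 2 or 3).

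Secretory genes were mostly not called. Of 14 goblet cell genes Ang4 alone passed, and Tff3 (8.9, 8.45 and 7.69 in untreated and 7.02, 7.1 and 8.4 in treated mice), Clca1 (-0.76 ± 0.36) and Retnlb (8.64, 8.9 and 6.57 in untreated and 5.37, 4.67 and 6.35 in treated mice) did not pass. None of 8 mucins passed. Muc1, which the series studies in marrow-derived cells, stood at -1.5, -1.72 and -2.25 in untreated and -2.17, -1.48 and -3.53 in treated mice, a change of -0.57 ± 0.6 with adjusted p = 0.535, and Muc13 at 1.09 ± 0.45. Tuft cell genes were lower in 7 of 15 cases and higher in none (median -1.85). The 4 steady ones were Rgs13 (-0.88, 0.23 and -0.77 in untreated and -3.63, -3.64 and -2.91 in treated mice), Trpm5, the taste channel (-2.12 ± 0.56), Dclk1 (-1.66 ± 0.47) and Alox5 (-1.85 ± 0.52). Gng13 (-2.62 ± 0.58), Hpgds (-1.92 ± 0.5) and Sucnr1 (-2.94 ± 0.77) were not. The tuft list median was -1.43 with slide as a fixed block, -0.59 within slide 2 and 0.19 with normexp background correction. Its median in single treated arrays was -1.85, -2.05 and -0.77, and in the untreated arrays of slide 2, with knockout marrow, -1.12 and -0.81, so that treated mouse 3 lay above both. With each array left out in turn, Rgs13 stayed under the threshold, and Ang4, Trpm5, Dclk1, Alox5, Gng13, Hpgds and Sucnr1 exceeded it in at least 1 fit (adjusted p up to 0.144, losses without untreated mouse 1, 2 or 3 or treated mouse 1 or 2).

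Detoxifying enzymes fell together. Of 36 conjugation enzymes 16 were lower and none higher (median -0.78), 15 of them steady. Sulfotransferases Sult1a1 (3.83, 3.88 and 4.52 in untreated and 1.55, 2.07 and 1.94 in treated mice), Sult2b1 (-0.18, 0.15 and -0.09 in untreated and -1.79, -1.72 and -1.92 in treated mice) and Sult1d1 (-1.93 ± 0.34, without treated mouse 1), the glutathione transferases Gstm1 (6.87, 6.58 and 7.53 in untreated and 5.45, 5.07 and 4.91 in treated mice) and Gstm3 (-1.74 ± 0.35), the glucuronosyltransferases Ugt2b35 (-1.97 ± 0.31) and Ugt2b5 (-3.9 ± 1.02) and the acetyltransferase Nat8 (-2.38 ± 0.4) fell. The list medians by array were -0.86, -0.94 and -0.97 in treated mice and -0.09, -0.06 and 0.14 in untreated ones. Ugt2b5 ran from -4.8 to -0.11 over the alternative settings. Ugt1a1 was called lower (-2.28 ± 0.5) and was not steady. Of 20 cytochrome P450 genes 6 were lower and 1 higher. Cyp2c55 stood at 5.9, 5.73 and 5.57 in untreated and 2.31, 2.3 and 3.2 in treated mice, Cyp2s1 at -2.03 ± 0.38 and Cyp3a13 at -1.5 ± 0.25, while Cyp7b1, an oxysterol hydroxylase with 1 untreated mouse well above background, rose by 3.27 ± 0.63. The selenium binding proteins Selenbp1 (8.75, 8.59 and 8.57 in untreated and 6.41, 6.4 and 6.68 in treated mice) and Selenbp2 (8.26, 8.21 and 8.33 in untreated and 5.93, 6.25 and 6.12 in treated mice) and the selenium carrier Selenop (8.87, 8.43 and 8.44 in untreated and 5.58, 6.64 and 5.82 in treated mice) fell. Selenbp1 and Selenbp2 are near-identical copies, and how far their probes share signal is not known here. Of the efflux pumps of P-glycoprotein, Abcb1a fell by 1.61 and Abcb1b by 1.41. Slc15a1, a peptide carrier, was called lower at -1.6 ± 0.39, with -0.03 when slide was a fixed block. Abcc2 (-2.51 ± 0.63) and Slc22a2 (at least 13.6-fold lower) were called and not steady. Leaving out single arrays kept Sult1a1, Sult2b1, Sult1d1, Gstm1, Ugt2b35, Nat8, Cyp2c55, Cyp2s1, Cyp3a13, Selenbp1, Selenbp2 and Selenop called, while Gstm3, Ugt2b5, Ugt1a1, Cyp7b1, Abcb1a, Abcb1b, Slc15a1, Abcc2 and Slc22a2 lost the call at least once (adjusted p up to 0.112, losses without untreated mouse 1, 2 or 3 or treated mouse 1 or 2).

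Single genes of energy metabolism changed. Of 31 genes of fatty acid and ketone use 4 were lower and none higher, near the 10.2% over all genes, and of 28 hypoxia and glycolysis genes 3 were higher and 1 lower (background 3.6% higher). Ppara, the nuclear receptor of fatty acid oxidation, fell by 1.73, Acaa2 by 1.02, and the short-chain fatty acid carriers Slc5a8 by 1.67 and Slc16a1 by 2.2 (6.2, 6.33 and 5.76 in untreated and 4.7, 5.17 and 1.83 in treated mice). Without treated mouse 3 the change of Slc16a1 was -1.16. In the citric acid cycle and respiratory chain 6 of 32 were lower and none higher (median -0.41), with Cox7a1 (-1.82 ± 0.34), Cox6c (-1.4 ± 0.31), Uqcrfs1 (-0.99 ± 0.27, and -0.08 with slide as a fixed block) and Sdhb (-1.49 ± 0.34, on 1 treated value). Glycolytic genes changed in both directions. Pfkfb3 (-0.27, 0.46 and -1.31 in untreated and 3.67, 3.02 and 1.7 in treated mice), Hk2 (1.39 ± 0.37) and the glucose carrier Slc2a3 (2.01 ± 0.59) rose and Pfkl fell by 0.8. Slc5a9, a sodium-coupled sugar carrier, stood at -0.03, 0.09 and -0.32 in untreated and 3.54, 3.01 and 3 in treated mice, and the fructose carrier Slc2a5 at 0.69, 1.31 and 1.56 in untreated and -2.43, -3 and -1.67 in treated mice, with opposite directions and no overlap. Slc7a7, an amino acid carrier, rose by 1.14 ± 0.21. Otc, ornithine transcarbamylase, fell (1.23, 0.69 and 0.6 in untreated and -1.83, -3.59 and -2.9 in treated mice), Azin1 fell by 0.87 and Smox, spermine oxidase, rose by 1.6 ± 0.28. Asns rose by 1.35 ± 0.27 and Cth and Cbs, of the transsulfuration path, fell by 0.98 and 1.26. Among these genes Cox7a1, Pfkfb3, Slc5a9, Slc2a5, Slc7a7, Otc and Smox were called in all 6 fits without 1 array, and Ppara, Acaa2, Slc5a8, Slc16a1, Cox6c, Uqcrfs1, Sdhb, Hk2, Slc2a3, Pfkl, Azin1, Asns, Cth and Cbs were not (adjusted p up to 0.134, losses without untreated mouse 1, 2 or 3 or treated mouse 1 or 2).

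Transcripts of prostaglandin and retinoid enzymes changed in both directions. Of 23 prostaglandin genes 2 were higher and 4 lower, and of 24 retinoid and steroid genes 3 were higher and 5 lower (background 3.6% higher and 10.2% lower). Ptgs2, cyclooxygenase 2, was not well above background in untreated mice and rose at least 7.72-fold (-6.65, -6.16 and -8.28 in untreated and -2.51, -3.81 and -1.84 in treated mice). Hpgd, which inactivates prostaglandins, fell (2.68, 3.26 and 3.75 in untreated and 1.2, 1.52 and 1.44 in treated mice), as did their carrier Slco2a1, by 1.09. Pla2g5 rose by 1.16 ± 0.28, without treated mouse 1. Aldh1a3, a retinaldehyde dehydrogenase, stood at -3.46, -2.64 and -3.53 in untreated and 3.86, 3.84 and -0.06 in treated mice, and Rdh10, which makes retinaldehyde, at -0.55, -0.06 and -0.2 in untreated and 1.59, 1.77 and 1.14 in treated mice. Rbp2, the cellular retinol binding protein of the gut, fell (0.15, 0.47 and -0.14 in untreated and -3.64, -2.68 and -1.95 in treated mice), and Akr1c14 by 1.33. Rdh16 (1.53 ± 0.37) and Nr0b2 (at least 4.18-fold lower) were called and were not steady. Of other nuclear receptors Nr5a2 fell by 2.14. The redox genes Prdx6 and Txnrd1 changed by -1.3 ± 0.34 and 1.09 ± 0.32. The metal carriers Steap4, a metalloreductase, and Slc30a1, a zinc exporter, changed by 3.04 ± 0.71 and -1.36 ± 0.34. In the lysosome Ctsc rose by 1.26 ± 0.28 and Lipa fell by 1.74. In the fits without 1 array, Hpgd, Aldh1a3, Rdh10, Rbp2 and Akr1c14 were always called, and Ptgs2, Slco2a1, Pla2g5, Rdh16, Nr0b2, Nr5a2, Prdx6, Txnrd1, Steap4, Slc30a1, Ctsc and Lipa missed the threshold in 1 or more (adjusted p up to 0.17, losses without untreated mouse 1, 2 or 3 or treated mouse 1, 2 or 3).

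Among the highest and lowest statistics several genes belonged to no list. Khdc1a, of a family active in germ cells and early embryos, stood at -3.21, -3.06 and -2.92 in untreated and 0.51, 1.85 and 1.9 in treated mice and Pde9a, a phosphodiesterase for cGMP, at 3.15, 3.44 and 3.15 in untreated and 5.12, 5.28 and 5.02 in treated mice. Mptx1, a pentraxin of the mouse gut, stood at 9.8, 10.31 and 9.07 in untreated and 4.61, 4.85 and 6.7 in treated mice, a 20.2-fold fall. Fam110a stood at 2.89, 3.76 and 2.56 in untreated and -1.65, -1.45 and -0.36 in treated mice and Bphl, a serine hydrolase, at 4.47, 4.37 and 3.64 in untreated and 1.97, 1.92 and 1.17 in treated mice. The change of Fam110a ran from -4.8 to -0.18 over the alternative settings. Of genes added after their values were seen, Thpo, thrombopoietin, rose by 2.34 ± 0.36, Dio3, which inactivates thyroid hormone, by 3.78 ± 0.6 and Bhmt2 at least 8.47-fold. Tac1, the precursor of substance P, was the 1 steady rise of the nerve and glia list (-1.59, -1.86 and -1.29 in untreated and 4.32, 4.57 and 0.94 in treated mice). Tnnt2 was the 1 steady rise among genes of other tissues (2.24 ± 0.44), and Pf4, platelet factor 4, among red cell and platelet genes (1.68 ± 0.42). Of 18 commonly used reference genes Gusb alone was called (0.73 ± 0.2), and Gapdh (4.88, 5.51 and 5.72 in untreated and 5.16, 5.36 and 4.54 in treated mice) and Actb (-1.23, 0.73 and 0.51 in untreated and 1.25, 1.11 and -0.6 in treated mice) did not pass. Single arrays decided no call of Khdc1a, Pde9a, Mptx1, Fam110a, Bphl, Thpo, Dio3, Bhmt2, Tac1 and Tnnt2, but at least 1 did for Pf4 and Gusb (adjusted p up to 0.13, losses without untreated mouse 1, 2 or 3 or treated mouse 1 or 2).

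Genes of other tissues, of nerve and glia, and of red cells and platelets had medians below 0 without a slide term and above 0 with it. Some other lists shared this, among them T, NK and innate lymphoid cells (-0.51 and 1.07) and endothelium (-0.48 and 0.86). Mast cell and eosinophil genes (-0.22 and 1.07) and Wnt ligands and modulators (-0.61 and 1.4) did so too. Lists without it were adipocyte genes with medians of -1.46 and -0.62, smooth muscle genes of 0.02 and 1.16, and B and plasma cell genes of 0.27 and 1.72. Of 24 genes of tissues other than colon 8 were lower and 1 higher, with a median of -2.09, which was 0.4 with slide as a fixed block, 1.2 within slide 2 and 0.34 with normexp background correction. Nerve and glia genes had a median of -1.12 (0.93 with the fixed block) and red cell and platelet genes of -2.17 (0.11). Examples are Prm1, a sperm protamine (1.18, 1.67 and 0.02 in untreated and -3.11, -4.2 and -0.69 in treated mice), Scgb1a1, of airway club cells (-0.5, -0.66 and -1.25 in untreated and -4.07, -4.32 and -2.85 in treated mice), Nrxn3 of neurons (-1.32, -1.67 and -3.28 in untreated and -9.01, -9.63 and -6.2 in treated mice, at least 19.1-fold lower) and the erythroid spectrin Sptb (-0.93, -0.77 and -2.33 in untreated and -9.04, -8.09 and -4.62 in treated mice, at least 31.7-fold lower). Treated mouse 3, on slide 2, lay nearer to the untreated mice than treated mice 1 and 2 for each of these 4. Untreated mice with knockout marrow on slide 2 had list medians of -1.75 and -2.03 for genes of other tissues, -1.42 and -1.85 for nerve and glia, and -1.12 and -1.13 for red cells and platelets. Members of other lists were also called lower and were not steady: Flt3 (-2.71 ± 0.71) and Zbtb46 (-2.33 ± 0.68) of dendritic cells, Tpsb2 of mast cells (-3.48 ± 0.88), C6 (-3.04 ± 0.63) and Masp1 (-3.16 ± 0.75) of complement, Slc2a2 (-2.92 ± 0.73), Siglec1 (-2.57 ± 0.8), Il22ra1 (-2.27 ± 0.62) and Il24 (-2.3 ± 0.48), Neurog3 (-2.45 ± 0.57), Esrrg (-1.71 ± 0.48), Rarg (-2.02 ± 0.59), Atp7b (-2.16 ± 0.63), Agmat (-1.6 ± 0.46), Apln (-1.52 ± 0.37), Fmod (-2.63 ± 0.62), Slc30a10 (at least 12.6-fold), Slc38a5 (-2.86 ± 0.75) and Slc51a (at least 10.1-fold). Klf4, of high signal, was called lower at 9, 8.91 and 8.29 in untreated and 7.01, 7.25 and 8.46 in treated mice with treated mouse 3 inside the untreated range. Cd86, a costimulatory molecule of antigen-presenting cells, rose at least 2.71-fold, well above background in 2 treated mice, and was steady. Bcl2a1b, which protects leukocytes from cell death, rose by 2.75 ± 0.49 without treated mouse 2. The calls of Sptb passed with any 1 array left out, and those of Prm1, Scgb1a1, Nrxn3, Flt3, Zbtb46, Tpsb2, C6, Masp1, Slc2a2, Siglec1, Il22ra1, Il24, Neurog3, Esrrg, Rarg, Atp7b, Agmat, Apln, Fmod, Slc30a10, Slc38a5, Slc51a, Klf4, Cd86 and Bcl2a1b were lost in at least 1 of those fits (adjusted p up to 0.166, losses without untreated mouse 1, 2 or 3 or treated mouse 1 or 2).

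**Figure D5:**
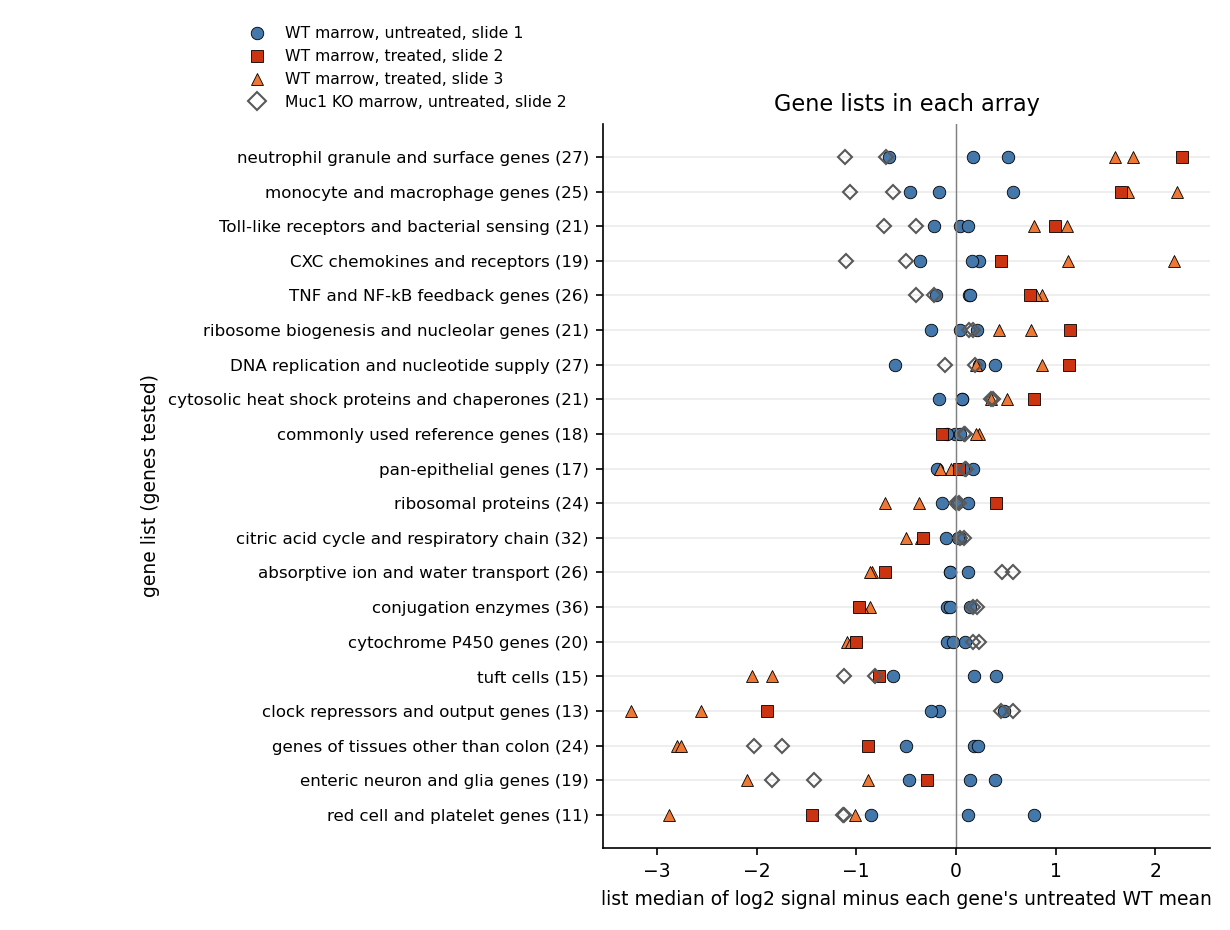
Median over each gene list of the log2 signal minus the gene's untreated mean, 1 point per array. Blue circles are untreated and orange or red symbols treated mice with wild-type marrow, and open diamonds are the untreated mice with knockout marrow on slide 2. Lists of other tissues, nerve and red cells are low in the diamonds too, while the diamonds lie close to the untreated circles, and not to the treated symbols, for ion transport, conjugation and clock output.

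The 3 treated mice differed from each other in named genes. Among the steady rises the median range over the treated mice was 0.8, with 63 genes over 2, and among the steady falls 0.8 and 59. Aldh1a3 and Tac1 were over 3 units lower in treated mouse 3 than in treated mice 1 and 2, and without it their changes were 7.06 and 6.03 in place of 5.76 and 4.86. Ccl4 and Hdc were highest in treated mouse 3, and without it the change of Ccl4 was 3.52 in place of 5.04. Treated mouse 3 is also the dimmest array and the only treated one on slide 2, so that mouse, slide and brightness cannot be told apart. Leaving out 1 array moved the count of called genes from 3276 to 487 without untreated mouse 1, 523 without untreated mouse 2, 1920 without untreated mouse 3, 502 without treated mouse 1, 1279 without treated mouse 2 and 7607 without treated mouse 3.

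The same treatment in mice with knockout marrow gave changes of the same sign for most of these genes. Of the 806 steady rises 99.1% were above 0 there and of the 639 steady falls 98.7% were below 0, against 77.7% of all genes with the same sign. Median changes of the steady rises were 1.49 with wild-type and 1.11 with knockout marrow, and of the steady falls -1.64 and -1.11. For the 63 genes called with both slide terms the medians were 3.15 and 3.43. Among the 1781 falls that were not steady, 97.9% were below 0 with knockout marrow (median -0.9). The genes were picked on the wild-type change, and the steady rule and the slide terms also drew on arrays with knockout marrow. Both comparisons share slides as well. Agreement in sign is thus partly built in, and these values are set side by side without a test. Tested as an interaction, marrow and treatment passed for no gene with limma, with 829 genes at an unadjusted p under 0.05, and for 6687 genes when arrays were weighted, where treated mouse 3 had a weight of 0.14. Dbp changed by -5.68 with wild-type marrow and by -6.14 with knockout marrow, S100a9 by 8.37 and 7.94, Tgm2 by 4.54 and 4.56, and Hsph1 by 1.89 and 0.45.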

How the data were processed

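RNA from scraped mucosa of 12 colons, 3 per group, was labelled with Cy3 and hybridised to single-colour Agilent arrays (design 014868). Per the file headers, intensities were read and background-subtracted with Feature Extraction 10.7.3.1, which the submitters deposited as processed signals. A list of 2506 probes that the authors deposited gives log2 group means, with the centring and the rule of choice unstated. Of the genes tested here 1799 were in the authors' deposited table, and 812 of these were called, all 812 with the same sign. Those means come from the same arrays, so agreement in sign is built in. Here, log2 processed signal minus each array's percentile 75 over gene spots was used, outlier spots were left out, spots of a probe were averaged, and the brightest probe of a gene was kept. Probes had to be well above background on all 3 arrays of any of the 4 groups. The 12 arrays were fitted with limma 3.58.1 (R 4.3.3, the package data.table, version 1.17.8; lmFit and eBayes with trend, 8 residual and 4.9 prior degrees of freedom), with Benjamini-Hochberg adjustment at 0.05; adjusted p-values are from this test. The fit was tested on simulated data with independent arrays and no slide effect, so that test does not bear on slides. The normexp alternative used median spot and background signals, offset 50.

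The members and gene lists were chosen with earlier results of these data known, as was the steady rule. Named genes were taken by statistic overall and per list, and others, such as Bcl2a1b, were added after their values were seen. RefSeq (GRCm38.p6) gave names and promoters. The number of arrays, 3 per group, limits the precision. The alternatives are scaling, background, filters, probe choice, slide terms, array weights, a replicate block and single arrays left out. Some genes that met the naming rule are not reported here.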

Additional observations from a re-analysis of the deposited data

How the results depend on the processing

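Counts of called genes, 3276 (856 higher and 2420 lower) as reported, moved with the settings. Quantile normalization gave 4649 (2205 higher, 2444 lower), median scaling 5151 (2918 higher, 2233 lower), normexp background correction 856 (308 higher, 548 lower), and a filter to probes well above background on all 6 arrays 1945 (1308 lower). Slide as a fixed block gave 127 (111 higher, 16 lower) and as a random block 168 over 12 arrays (119 higher, 49 lower) and 0 over 6 with limma (1608 at unadjusted p under 0.05). Treated arrays of slide 3 alone gave 7603 (1425 higher, 6178 lower), the treated array of slide 2 alone 2234 (1064 lower), the comparison within slide 2 7399 (5138 higher), the 6 arrays alone 1327 (255 higher, 1072 lower) and array weights 11962 (3362 higher, 8600 lower), with 6687 for the marrow by treatment interaction in place of 0 (829 at unadjusted p under 0.05 with limma). Leaving out 1 array gave 487 to 7607 called, 199 to 1432 higher and 259 to 6175 lower. Replicate numbers did not pair the mice (correlations of same-numbered deviations -0.14, -0.02 and -0.38), and a replicate block gave 2328 (730 higher, 1598 lower). Of 230 genes named by rule 229 were called, and in the same direction 122 with normexp, 38 with the fixed and 78 or 0 with the random slide blocks, 128 with the treated array of slide 2 alone, 137 with the 6 arrays alone and 98 to 221 with 1 array left out. The causes were not tested.

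Over the named genes that were called, 4088 of 6070 values under these settings kept direction and call, 1918 kept direction only and 64 changed sign. With normexp the changes became Slc22a2 0.22, Abcc2 0.78, Hpx 0.17, Col15a1 0.65, C6 0.09, Masp1 0.71, Ugt1a1 0.22, Siglec1 0.4, Il22ra1 0.06, Slc9a3 0.43, Scnn1g 0.06, Lor 0.12, Hpgds 0.19, Fmod 0.2, Slc30a10 0.08, Nr0b2 0.92, Slc38a5 0.67, Slc51a 0.63, Gng13 0.53 and Sucnr1 0.7. With slide as a fixed block they became Orm2 0.22, Agmat 0.36, Cr2 0.11, Siglec1 0.94, Sprr2d 0.32, Tpsb2 0.42, Atp7b 0.89, Flt3 0.41, Zbtb46 0.58, Nrxn3 0.32, Ctsg 0.08, Esrrg 0.23, Rarg 0.16, Nr0b2 0.69 and Slc2a2 0.37. Within slide 2 they became Slc22a2 1.15, Hpx 0.6, Orm2 1.31, Agmat 0.58, Cr2 0.42, Masp1 0.52, Apln 0.25, Neurog3 0.27, Klf4 0.04, Siglec1 1.1, Chordc1 -0.09, Il24 0.04, Il22ra1 0.71, Sprr2d 1.31, Tpsb2 1.59, Atp7b 1.19, Flt3 1.57, Zbtb46 1.12, Nrxn3 1.91, Ctsg 0.64, Esrrg 0.73, Rarg 0.78, Prm1 1.4, Scgb1a1 0.58, Sesn2 0.6, Sptb 0.52, Rdh16 -0.02, Nr0b2 1.68 and Slc2a2 1.15. These genes were called lower without a slide term except Chordc1 and Rdh16, and none is steady. A steady sign does not fix the size of a change. Some steady genes came near 0 in a setting, among them Fam110a (-0.18), Ang4 (-0.16), Ugt2b5 (-0.11), Cbs (-0.15), Azin1 (-0.14) and Hspa5 (0.08). Signal over background limits dim probes, and 3 mice per group on separate slides limit every comparison.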
